A study of Mus musculus with 6 samples.

Results

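The genes described here encode the proteins of synaptic vesicles and of the machinery that docks, fuses and recovers them. The 45 genes were chosen by name and grouped by role, out of 55385 gene identifiers in the count files. There were 9 vesicle proteins, 10 synaptotagmins and related calcium sensors, 11 SNAREs, complexins and SNARE regulators, 3 RAB3 GTPases, 8 active zone genes and 4 genes of endocytosis and recycling. All 45 were found in the files and all 45 passed the filter on low counts.

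A synaptic vesicle is filled with transmitter, tethered to the presynaptic active zone, made ready to fuse, and released when calcium enters. The SNARE proteins synaptobrevin (Vamp1, Vamp2) on the vesicle and syntaxin (Stx1a) and SNAP-25 (Snap25) on the plasma membrane zip together to drive fusion, synaptotagmins sense the calcium, and complexins bind the partly assembled SNARE complex. NSF with its SNAP adaptors (Napa, Napb) takes the spent complexes apart, while dynamin, amphiphysin, AP180 and synaptojanin recover the membrane. In cortical neurons these transcripts are made in the cell body and their proteins act in the axon, so a transcript level is no direct measure of release.

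The RNA came from mouse primary cortical neurons that had been taken at embryonic day 18 and cultured for 16 days. Every culture, in both groups, had received the DNA synthesis inhibitor AraC (2.5 uM) for 24 hours from day 2, which limits dividing cells. The 3 control libraries are from untreated cells. The 3 activated libraries are from cells given KCl, which depolarises neurons, for 5 minutes, then washed and left for 30 minutes before harvest. The KCl concentration is 50 mM in one label and 50 uM in another. Strain and genotype are not stated, nor whether the replicates were separate cultures, so the p-values measure the spread between these samples only.

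Gene reads ranged from 17752711 to 32919975 per library, and each group had 3 libraries. Transcripts that neurons are known to induce on depolarisation went against the labels: Arc lay at 179.6, 186 and 163 CPM (gene reads scaled by TMM to a common depth) in control replicates 1 to 3 and at 46.3, 48.3 and 52.1 CPM in activated replicates 1 to 3. The groups are therefore called the libraries labelled control and labelled activated, and each direction below rests on those labels. Neuron and glial markers were all present except Gpr17, of the oligodendrocyte lineage, which had no read. By the test described below, 20.6% of all tested genes were lower in the libraries labelled activated and 16.2% higher. Excitatory neuron markers were lower for 8 of 16 and higher for 1, and inhibitory neuron markers lower for 10 of 18. Their summed levels were 2410–2533 CPM against 2533–2724 CPM for the excitatory list and 3022–3146 CPM against 2389–2648 CPM for the inhibitory list, labelled control first. Astrocyte markers were higher for 14 of 15 tested, with sums of 1432–1479 against 1917–2325 CPM. Microglia markers were higher for 8 of 13 (62.1–83.7 against 74.2–139 CPM), oligodendrocyte lineage markers for 4 of 8 (60.5–65.8 against 79.3–90.7 CPM), and endothelial, mural and fibroblast markers for 9 of 13 (245–276 against 385–447 CPM). The microglia sums overlapped between groups. Only 1 of the 13 microglia markers was higher without overlap, beside 22.6% of all tested genes. The part of these shifts in the results below was not tested. In RNA of a whole culture, fewer cells of a type and less RNA per cell cannot be told apart.

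Under TMM scaling, 24 of the 45 release genes were lower in the libraries labelled activated, 1 was higher and 20 had no call (edgeR quasi-likelihood test, adjusted p below 0.05 over all genes tested). Among all 18132 tested genes 20.6% were lower and 16.2% higher. The median log2 fold change of the 45 genes was −0.23, beside 0.043 over all tested genes, and 40 of the 45 lay below that median of all genes. In 25 of the 45 the groups did not overlap with labelled activated lower, and in 2 with labelled activated higher, beside 26.4% and 22.6% of all tested genes. The summed level of the 45 genes was 15014, 14877 and 15077 CPM in the libraries labelled control and 13252, 12121 and 13566 CPM in those labelled activated, so the groups did not overlap. By role, the SNAREs, complexins and their regulators, the RAB3 GTPases and the endocytic genes held 17 of the 24 lower calls. Synaptophysin, the synaptogyrins, the SV2 proteins and most synaptotagmins had no call.

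**Figure D1:**
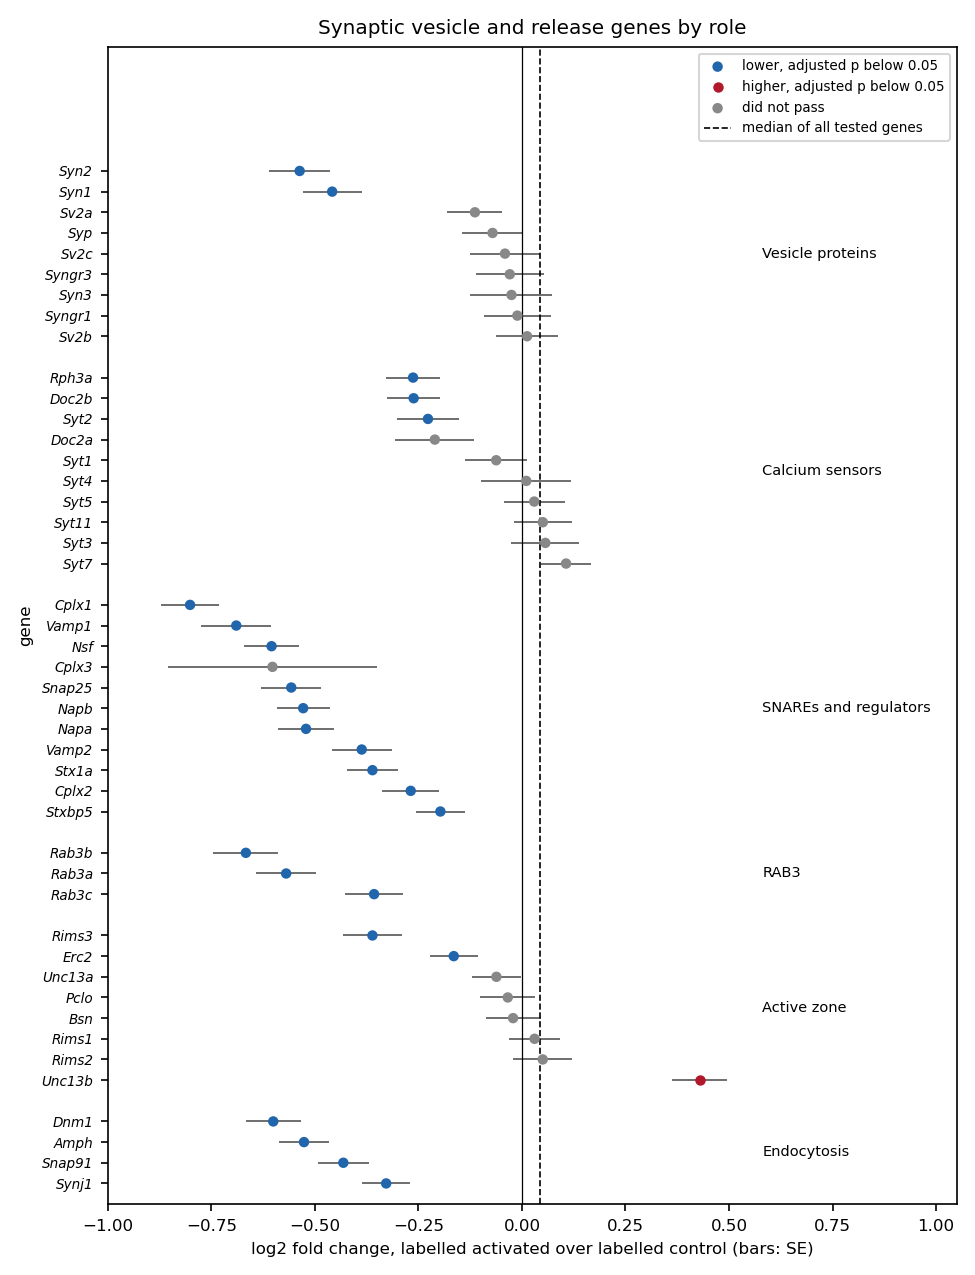
Log2 fold change of each of the 45 genes, labelled activated over labelled control, by role, with bars of 1 standard error from the edgeR fit of 3 against 3 libraries. Blue points are lower, red higher and grey did not pass, under TMM scaling; the dashed line is the median of all tested genes (0.043). SNARE, RAB3 and endocytic genes lie to the left of it, from −0.80 (Cplx1) to −0.20 (Stxbp5), and Unc13b, the red point, lies at 0.43; under neuron marker scaling, not drawn here, every gene moves right by about the same amount and 17 change sign.

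These counts depend on how the libraries are scaled. Scaling to the neuron marker genes moved the median of all tested genes from 0.043 to 0.35. Under it 11 of the 45 were lower and 19 higher, beside 3.17% and 48% of all tested genes. With total counts only, 26 were lower and 1 higher, beside 25.2% and 11.5% of all tested genes. A scaling shifts every gene by nearly the same amount, so the difference of the 45 genes' median from that of all tested genes (−0.27 on the log2 scale) does not depend on it. The 11 genes that stayed lower when scaled to neuron markers were Syn2, Snap25, Vamp1, Cplx1, Nsf, Napa, Napb, Rab3a, Rab3b, Dnm1 and Amph. Unc13b was higher under every scaling run.

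**Figure D2:**
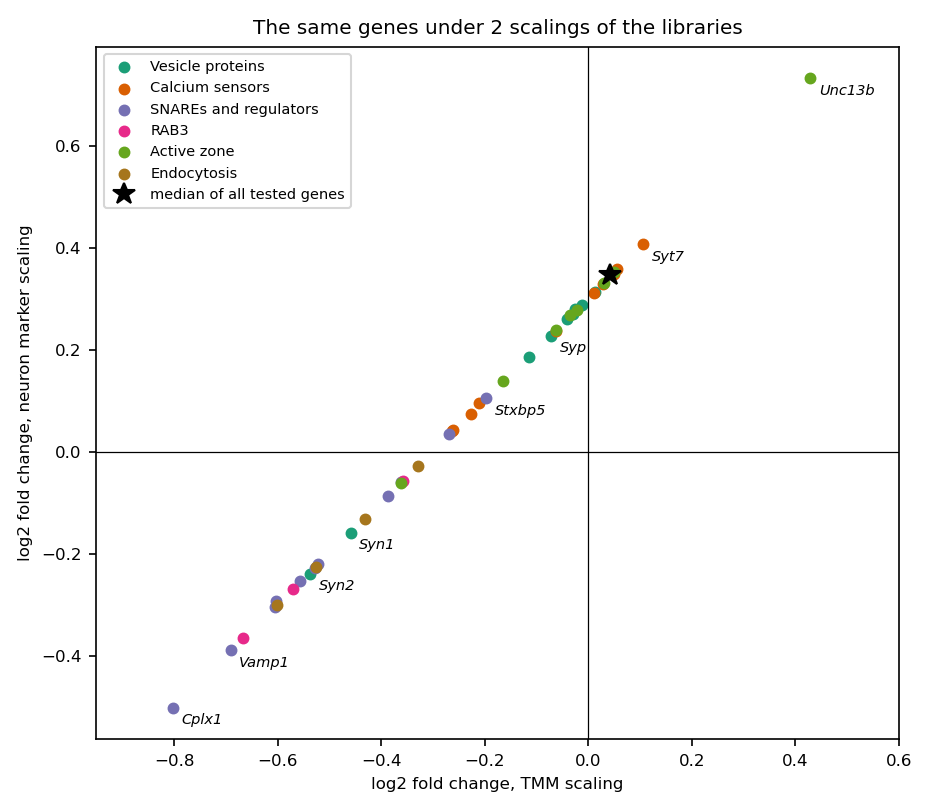
Log2 fold change of the 45 genes under TMM scaling (horizontal) and under scaling to neuron marker genes (vertical), coloured by role; the star marks the median of all tested genes (0.043 and 0.35). The points lie close to 1 line, so the scaling shifts the 45 genes by nearly the same amount and decides on which side of 0 a gene falls: Cplx1 stays below 0 (−0.80 and −0.50), while Syp goes from −0.071 to 0.23.

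Promoter sequence was examined because many of these genes moved together. Of the 45, 35 had an entry in the RefSeq promoter table (GRCm38.p6), and the 250 bases before each start were searched on both strands. The CRE palindrome TGACGTCA, read by CREB proteins, was found for 1 of 35 genes (Syn1), beside 1.77% of all 27025 genes in the table. The EGR-type letters GCGTGGGCG were found for Synj1 and Unc13a (0.622% of all genes), and GCGGGGGCG for Stxbp5, Syn2 and Syngr1 (2.93%). The AP-1 letters TGANTCA were found for Erc2, Rph3a and Syt2 (7.82%), and the GC box GGGCGG, which can overlap the EGR-type letters, for 24 of 35 genes against 35.4% of all. Of those 24 genes with a GC box 14 were called lower, beside 24 of all 45 release genes. These shares are over all genes in the promoter table, not the tested genes alone. The E-box CACGTG was found for 5 of 35 genes, Cplx3, Napa, Nsf, Sv2b and Unc13b, beside 6.86% of all genes. A match of letters is a description and not a bound site. The sequences below are shown for Syn1 as the CRE match, and for Napa, Nsf and Unc13b because Napa and Nsf were lower and Unc13b higher in the libraries labelled activated and all 3 hold an E-box. Capitals mark those motifs, each run is written 5′ to 3′ on the gene's strand, and bases within the gene as GENCODE annotates it were left off.
Syn1 (chrX:20921005-20921168, minus strand): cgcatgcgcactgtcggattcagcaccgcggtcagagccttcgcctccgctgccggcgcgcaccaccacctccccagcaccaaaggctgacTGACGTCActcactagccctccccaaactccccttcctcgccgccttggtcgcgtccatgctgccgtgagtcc
Napa (chr7:16098330-16098457, plus strand): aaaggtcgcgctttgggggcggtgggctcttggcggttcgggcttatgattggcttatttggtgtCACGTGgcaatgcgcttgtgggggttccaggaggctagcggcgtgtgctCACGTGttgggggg
Nsf (chr11:103954057-103954306, minus strand): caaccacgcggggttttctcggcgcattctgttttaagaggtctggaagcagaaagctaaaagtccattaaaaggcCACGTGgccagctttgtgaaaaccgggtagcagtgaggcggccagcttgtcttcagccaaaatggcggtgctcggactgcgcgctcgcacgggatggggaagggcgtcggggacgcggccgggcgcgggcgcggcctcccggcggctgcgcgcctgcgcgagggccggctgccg
Unc13b (chr4:43058703-43058952, plus strand): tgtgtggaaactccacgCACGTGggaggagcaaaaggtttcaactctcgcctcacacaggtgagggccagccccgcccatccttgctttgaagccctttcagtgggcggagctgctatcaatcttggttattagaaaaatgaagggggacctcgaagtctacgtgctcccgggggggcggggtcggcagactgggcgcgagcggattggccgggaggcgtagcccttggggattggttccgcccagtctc

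The SNAREs and the proteins that act on them, the largest role, held the most lower calls. Of 11 genes, 10 were lower, none was higher and Cplx3 did not pass, beside 20.6% lower and 16.2% higher among all tested genes. By share the RAB3 and endocytic roles were higher, with every gene lower. The median log2 fold change of the 11 genes was −0.53, and −0.23 under neuron marker scaling. There 6 were lower and none higher, beside 3.17% and 48% of all tested genes. Below, values of 3 libraries are in the order of replicates 1, 2 and 3, in TMM-scaled CPM.

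Cplx1 (ENSMUSG00000033615.9, chromosome 5, 108518554 to 108550024), a complexin, had the largest decrease of the 45 genes. It lay at 409, 413 and 419 CPM in the libraries labelled control and 245, 213 and 254 CPM in those labelled activated. The highest library labelled activated was therefore well below the lowest labelled control. Cplx1 fell by 42.6%, a log2 change of −0.80 ± 0.070 (SE; edgeR adjusted p = 9.72e-06; n = 3 each). Its paralogue Cplx2 stood at 593, 564 and 654 against 485, 501 and 517 CPM. The Cplx2 groups did not overlap either, but the decrease was smaller (−0.27 ± 0.069, edgeR adjusted p = 0.00812). It was not called without control replicate 3 (−0.20), and its sign turned under neuron marker scaling (0.035). Cplx3, a complexin known from retina and cortical subplate, was near the lower end of detection at 1.70, 1.95 and 2.60 against 1.84, 1.01 and 1.41 CPM, with overlapping groups and no call (−0.60 ± 0.25). Cplx3 was called with no low-count filter (−0.62) and without activated replicate 1 (−0.79). Per kilobase of exon, the levels in the libraries labelled control were 189 CPM for Cplx1, 122 for Cplx2 and 0.705 for Cplx3. In those labelled activated Cplx1 and Cplx2 were close, at 108 and 102 CPM per kilobase.

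The vesicle SNARE Vamp1 (ENSMUSG00000030337.16, chromosome 6, 125215551 to 125245964), the synaptobrevin of motor and fast-spiking neurons, read 47.5, 53.3 and 48.5 CPM in the libraries labelled control and 31.7, 26.9 and 33.9 CPM in those labelled activated. Its decrease was −0.69 ± 0.085 (SE; edgeR adjusted p = 6.53e-05). Vamp2, the synaptobrevin of most forebrain synapses, read 699, 655 and 706 against 540.2, 477 and 559 CPM. Both had every library labelled activated below every library labelled control. The Vamp2 change was −0.39 ± 0.072 (edgeR adjusted p = 0.00104) and lost its call under neuron marker scaling (−0.087). Snap25, the palmitoylated SNARE of the plasma membrane, stood at 606, 527 and 627 against 410.0, 388 and 399 CPM. Its libraries labelled control spread over a wider range than those labelled activated, and the groups did not overlap. Snap25 fell by 32.0% (−0.56 ± 0.072; edgeR adjusted p = 9.36e-05). Stx1a, the plasma membrane syntaxin, stood at 94.8, 93.7 and 95.5 against 73.8, 70.0 and 77.3 CPM, a change of −0.36 ± 0.061 (edgeR adjusted p = 0.000485) with no call under neuron marker scaling (−0.060). Stxbp5, tomosyn, which binds syntaxin and SNAP-25 and holds back SNARE assembly, had the smallest change of the called SNARE regulators. It stood at 159.5, 161 and 167 against 145, 145 and 135 CPM (−0.20 ± 0.060; edgeR adjusted p = 0.0189). It was not called without control replicate 2 (−0.19) or control replicate 3 (−0.17), and under neuron marker scaling its value was 0.10.

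The disassembly machinery moved in step. Nsf (ENSMUSG00000034187.18, chromosome 11, 103821782 to 103954056), the ATPase that unwinds used SNARE complexes, stood at 455, 451 and 459 CPM in the libraries labelled control and at 309, 274 and 316 CPM in those labelled activated. The spread within labelled control was small beside the gap to labelled activated, and the log2 change came to −0.60 ± 0.067 (SE; edgeR adjusted p = 3.69e-05). Napa, the alpha-SNAP adaptor that brings NSF to the complex, stood at 99.2, 99.5 and 95.9 against 69.1, 62.4 and 73.6 CPM. Napb, its brain-enriched paralogue beta-SNAP, stood at 379, 396 and 391 against 279, 251 and 279.8 CPM. Their changes were nearly equal, −0.52 ± 0.068 and −0.53 ± 0.064 (edgeR adjusted p = 9.58e-05 and 6.12e-05). All 3 genes kept their calls in every alternative run, neuron marker scaling included (−0.31, −0.22 and −0.23).

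All 3 RAB3 genes, which encode vesicle-bound GTPases that link the vesicle to RIM proteins, were lower, beside 20.6% of all tested genes. Rab3a, the main form in forebrain, stood at 244, 214 and 236 CPM against 165, 142 and 161 CPM. Rab3b stood at 39.95, 36.5 and 35.9 against 25.0, 21.6 and 24.4 CPM, and Rab3c at 383, 395 and 393 against 319.7, 274 and 320.5 CPM. None of the 3 had overlapping groups, and in each the lowest library was activated replicate 2. The log2 fold changes were −0.57 ± 0.073, −0.67 ± 0.078 and −0.36 ± 0.070 (SE; edgeR adjusted p = 8.6e-05, 5.06e-05 and 0.00141). Under neuron marker scaling Rab3a and Rab3b kept a lower call, whereas Rab3c did not (−0.058). The order of levels per kilobase of exon was the same in both groups, Rab3a (104 then 70.1 CPM), Rab3c (32.4 then 25.3 CPM) and Rab3b (10.6 then 6.71 CPM), labelled control first.

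The 4 genes of endocytosis and recycling were all lower, beside 20.6% of all tested genes, with a median of −0.48. Under neuron marker scaling the median was −0.18. There 2 were lower and none higher, beside 3.17% and 48% of all tested genes. Dnm1, the neuronal dynamin that pinches off endocytic vesicles, stood at 505, 541 and 535 CPM against 364, 323 and 355 CPM. Amph, amphiphysin, which brings dynamin to the vesicle neck, stood at 176, 182 and 179 against 131, 118 and 124 CPM. Both groups were clearly separate, with changes of −0.60 ± 0.066 and −0.53 ± 0.061 (SE; edgeR adjusted p = 3.69e-05 and 4.69e-05). Snap91, the clathrin adaptor AP180, stood at 393, 394 and 406 against 306, 279 and 299 CPM (−0.43 ± 0.061; edgeR adjusted p = 0.000166). Synj1, the lipid phosphatase synaptojanin 1 whose action lets the clathrin coat come off, stood at 291, 288 and 289 against 238, 227 and 226 CPM (−0.33 ± 0.058; edgeR adjusted p = 0.000684). Neither overlapped between groups, and under neuron marker scaling neither was called (−0.13 and −0.028).

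**Figure D3:**
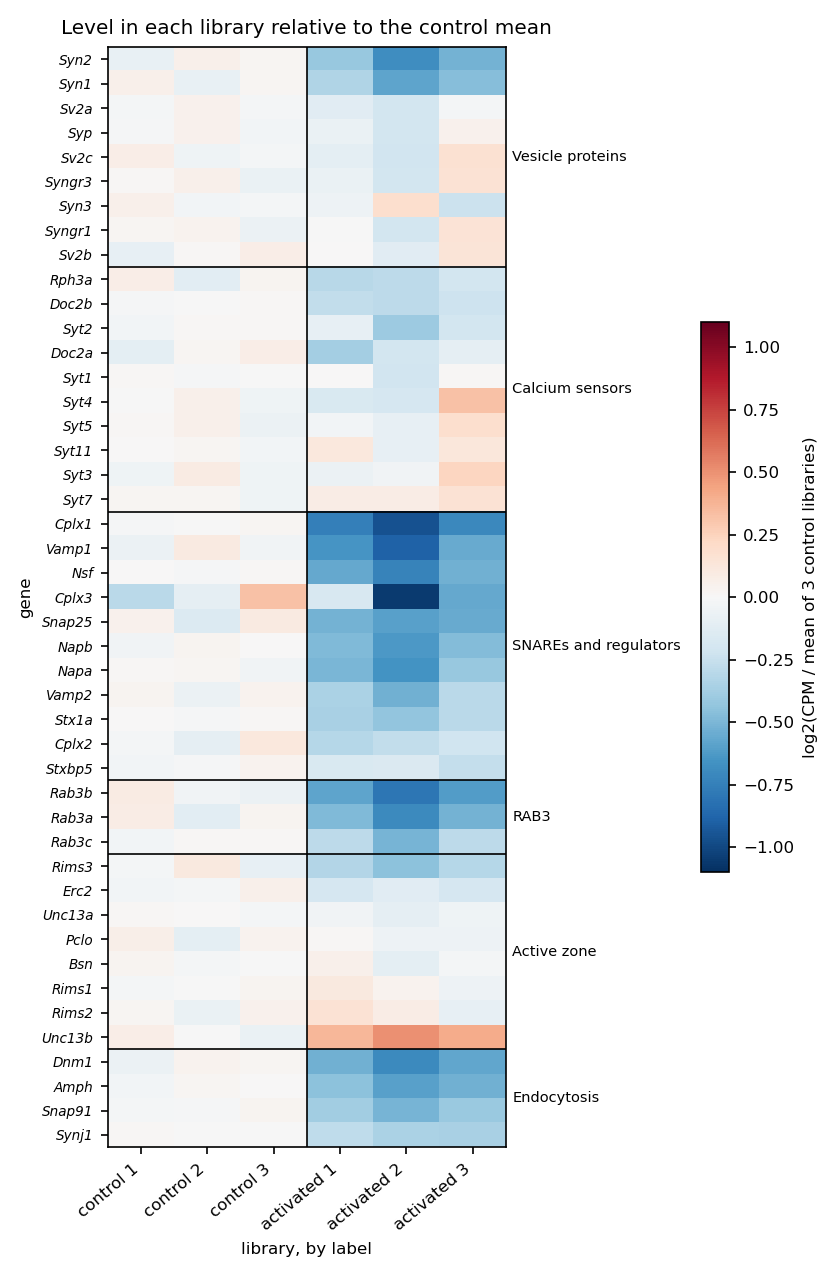
Level of each of the 45 genes (rows, grouped by role) in each of the 6 libraries (columns), as log2 of CPM over the mean of the 3 control libraries; blue is below and red above that mean. SNARE, RAB3 and endocytic rows are blue in all 3 libraries labelled activated and for most genes deepest in activated replicate 2, while rows of vesicle membrane proteins differ among those libraries, as Syngr1 does at 509, 443 and 566 CPM.

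Of the 9 vesicle proteins, 2 were lower, none was higher and 7 had no call, around a median of −0.041. Among all tested genes 20.6% were lower and 16.2% higher, so the lower calls were near the share of all genes. Both lower genes were synapsins, and the membrane proteins had no call. Synapsins coat the vesicle and tie it to the reserve pool. Syn1 (ENSMUSG00000037217.15, chromosome X, 20860511 to 20921004) stood at 293, 267 and 286 CPM against 224, 189 and 204 CPM, and Syn2 at 421, 462 and 451 against 333, 277 and 310.2 CPM. Both were lower in every library labelled activated, by −0.46 ± 0.071 and −0.54 ± 0.074 (SE; edgeR adjusted p = 0.000282 and 0.000134). Under neuron marker scaling Syn2 kept its call (−0.24) and Syn1 did not (−0.16). Syn3, the synapsin of early development, was far less abundant, at 22.6, 21.3 and 21.4 against 20.9, 24.7 and 18.5 CPM, with overlapping groups and no call (−0.025 ± 0.10). Per kilobase of exon the labelled control levels were 85.4 CPM for Syn1, 63.3 for Syn2 and 1.77 for Syn3.

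Syp, synaptophysin, an abundant membrane protein of the vesicle, stood at 1202, 1251 and 1187 CPM against 1156, 1055 and 1254 CPM. Per kilobase of exon it was the highest of the 45 genes, at 233 CPM in the libraries labelled control. Its groups overlapped, and the log2 change came to −0.071 ± 0.074 (edgeR adjusted p = 0.474). The synaptogyrins are relatives of synaptophysin with the same membrane topology. Syngr1 stood at 517, 525 and 489 against 509, 443 and 566 CPM and Syngr3 at 189, 195 and 178 against 178, 163 and 209 CPM. In both, activated replicate 2 was the lowest and activated replicate 3 the highest of all 6 libraries, so the change, −0.011 ± 0.081 and −0.029 ± 0.082, was smaller than the spread within the group. The SV2 genes encode vesicle glycoproteins that help prime release. Sv2a stood at 562, 591 and 564 against 526, 498 and 564 CPM, Sv2b at 255, 275 and 285 against 272, 250.03 and 301 CPM, and Sv2c at 194, 179 and 182 against 172, 159 and 207 CPM. All 3 overlapped, with changes of −0.11 ± 0.066, 0.012 ± 0.074 and −0.041 ± 0.085. Sv2a was called lower with total counts only (−0.18). With libraries scaled to neuron markers, where the middle of all genes is 0.35, the 7 vesicle proteins other than Syn1 and Syn2 were called higher, from 0.19 (Sv2a) to 0.31 (Sv2b), each below that median. Under that scaling 48% of all tested genes were called higher.

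Of the 10 calcium sensors, 3 were lower, none was higher and 7 had no call, around a median of −0.026. The shares over all tested genes were 20.6% lower and 16.2% higher. Under neuron marker scaling none was lower and 6 were higher, beside 3.17% and 48% of all tested genes. The median of the 10 was then 0.27, below the 0.35 of all genes. Syt1, the main sensor of fast synchronous release, stood at 1367, 1336 and 1349.8 CPM against 1353, 1165 and 1364 CPM, with overlapping groups (−0.062 ± 0.074; edgeR adjusted p = 0.534). Syt11, a synaptotagmin that does not bind calcium, stood at 668, 672 and 652 against 717, 623 and 722 CPM (0.050 ± 0.071). Syt2, the fast sensor of hindbrain and of parvalbumin neurons, was the synaptotagmin that fell, from 75.8, 78.3 and 78.2 to 72.9, 58.7 and 67.4 CPM. Its change of −0.23 ± 0.075 (edgeR adjusted p = 0.0282) was small and rested on single libraries. The call was lost without control replicate 2 (−0.21), without control replicate 3 (−0.22) or without activated replicate 2 (−0.15). The other synaptotagmins had no call: Syt3 0.056, Syt4 0.010, Syt5 0.030 and Syt7 0.11. Syt7, the sensor of asynchronous release and of vesicle replenishment, read 273, 273 and 259.6 against 283, 283 and 299 CPM, above labelled control in all 3 libraries but short of the threshold (edgeR adjusted p = 0.174). It was called higher with a filter of 1 CPM in 3 libraries (0.14) and with length and GC offsets (0.16). Syt4, which is itself an activity-induced transcript, read 302, 316 and 294 against 271, 267 and 380.3 CPM. Activated replicate 3 was the highest of the 6 for Syt4, and without it the gene was called lower (−0.18, edgeR adjusted p = 0.0339).

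Of the 3 soluble C2-domain proteins, 2 were lower, beside 20.6% of all tested genes. Rph3a, rabphilin, an effector of RAB3, stood at 243, 213 and 235 CPM against 187, 188 and 201 CPM (−0.26 ± 0.066; edgeR adjusted p = 0.00705). Doc2b, a high-affinity sensor linked to spontaneous release, stood at 37.7, 38.0 and 38.3 against 31.5, 31.1 and 32.4 CPM (−0.26 ± 0.063; edgeR adjusted p = 0.00565). Its paralogue Doc2a stood at 15.2, 16.7 and 17.3 against 12.7, 14.3 and 15.3 CPM, with groups that overlapped slightly and no call (−0.21 ± 0.10; edgeR adjusted p = 0.0981). Under neuron marker scaling the values of Rph3a, Doc2b and Doc2a were 0.040, 0.041 and 0.10, with no call. The calls of Rph3a and Doc2b were also lost with length and GC offsets and a replicate block together (edgeR adjusted p = 0.0549 and 0.0529). Doc2a was called lower when scaled by total counts (−0.28), and also without activated replicate 3 (−0.28).

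Of the 8 active zone genes, 2 were lower, 1 was higher and 5 had no call, around a median of −0.028. Among all tested genes 20.6% were lower and 16.2% higher, so these calls were near the shares of all genes. Under neuron marker scaling none was lower and 6 were higher, beside 3.17% and 48% of all tested genes. Their median there was 0.27, below the 0.35 of all genes. The giant scaffolds Bsn (bassoon) and Pclo (piccolo), which organise the site of release, stood at 869, 839 and 852 against 888, 793 and 843 CPM and at 628, 559 and 617 against 606, 577 and 578 CPM. Both overlapped between groups, with changes of −0.021 ± 0.066 and −0.034 ± 0.067. Rims1 and Rims2, the large RIM proteins that bind RAB3 and calcium channels, had changes of 0.030 ± 0.063 and 0.050 ± 0.071 and no call. Rims1 read 261, 264 and 270.5 against 285, 273 and 254 CPM. Rims3, which encodes a short RIM made up of the C-terminal C2 domain, was lower at 52.4, 57.2 and 49.7 against 42.4, 38.9 and 42.7 CPM. The Rims3 groups did not overlap (−0.36 ± 0.071; edgeR adjusted p = 0.00146), but the call was lost under neuron marker scaling (−0.062). Erc2, the ELKS scaffold CAST, was the weakest call of the 45 genes, at 183, 184 and 194 against 165, 171 and 164 CPM (−0.16 ± 0.059; edgeR adjusted p = 0.0398). It lost the call without each of the 3 control libraries, without activated replicate 1 or activated replicate 3, with a filter of 1 CPM and with length and GC offsets, and its values ran from −0.18 to −0.13 with 1 library left out.

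Unc13b (ENSMUSG00000028456.18, chromosome 4, 43058953 to 43264871) was the 1 gene of the 45 called higher. It encodes Munc13-2, which opens syntaxin to make vesicles ready for fusion, and stood at 49.7, 47.1 and 45.02 CPM in the libraries labelled control and 60.8, 67.2 and 62.8 CPM in those labelled activated. Every library labelled activated was above every one labelled control, and the log2 change came to 0.43 ± 0.066 (SE; edgeR adjusted p = 0.000268). It stayed higher in every alternative run (0.39 to 0.48 with 1 library left out). Unc13a, which encodes Munc13-1, the main priming factor of forebrain excitatory synapses, stood at 494, 489 and 483 against 475, 456 and 474 CPM. The Unc13a groups did not overlap, but the change was small (−0.062 ± 0.059; edgeR adjusted p = 0.435). Unc13b is known to make more than 1 form of Munc13-2, and gene counts do not separate the forms. Astrocyte and vascular marker sums were higher in the same libraries, and microglial sums overlapped between groups, with the values given above. The part of these cell types in the Unc13b result was not tested.

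Ratios between 2 genes of 1 library do not depend on how libraries are scaled, so 12 pairs of related genes were compared on that scale (log2 ratio of reads per exon base, 0.5 reads added). With 3 against 3 libraries the smallest exact permutation p is 0.1, so no pair can pass 0.05, and the smallest value adjusted over the 12 pairs was 0.171. In 7 pairs the groups did not overlap. The share for gene pairs at large was not computed. Among single tested genes under TMM scaling, 26.4% did not overlap with labelled activated lower, and 22.6% with labelled activated higher. The Cplx1 to Cplx2 ratio moved most: its log2 values were 0.64, 0.72 and 0.53 in the libraries labelled control and 0.19, −0.061 and 0.14 in those labelled activated. This was a difference of −0.54 (exact two-sided permutation p = 0.1), from 1.55 to 1.06 on the linear scale. The Unc13a to Unc13b ratio was 4.16, 4.23 and 4.27 against 3.82, 3.61 and 3.77, from 18.6 to 13.3 on the linear scale. Rims1 gained on Rims3 by 0.39, and Syn3 on Syn1 by 0.43, the latter led by activated replicate 2 (−5.31, −4.83 and −5.36 in replicates 1 to 3). Vamp1 moved against Vamp2 by −0.31, Rab3a against Rab3c by −0.21 and Syt1 against Syt11 by −0.11. The groups overlapped in the other pairs. The Napa to Napb ratio averaged −1.09 ± 0.046 and −1.08 ± 0.047 (SD, n = 3), while Napa fell by 30.3% and Napb fell by 30.7%. Syn1 to Syn2 (0.080), Syngr1 to Syngr3 (0.020), Doc2a to Doc2b (0.041) and Sv2a to Sv2b (−0.12) overlapped as well.

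**Figure D4:**
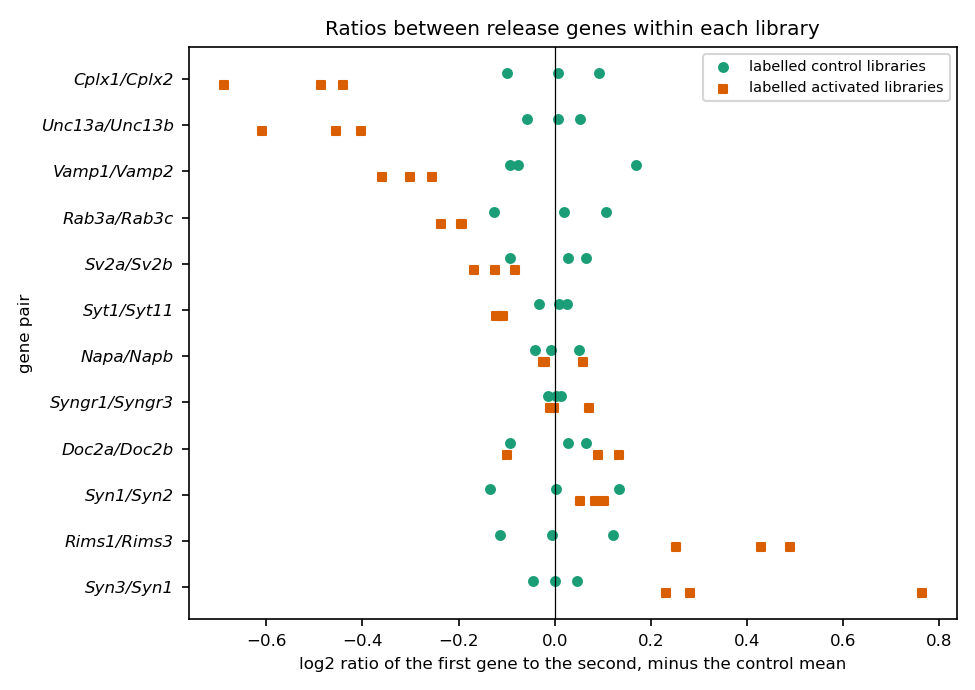
Log2 ratio of 2 related genes within each library, less the mean of the 3 control libraries (circles, labelled control; squares, labelled activated; n = 3 each). Squares lie apart from circles for 7 of 12 pairs, by mean difference farthest for Cplx1/Cplx2 (−0.54) and Unc13a/Unc13b (−0.49), and among them for Napa/Napb and Syngr1/Syngr3. The share for gene pairs at large was not computed.

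Genes of the same machinery outside the 45 were listed separately. Of 74 listed, 73 were found and 71 tested, of which 40 were lower, 4 higher and 27 without a call, beside 20.6% lower and 16.2% higher among all tested genes (edgeR, adjusted over all genes). Their median log2 fold change was −0.24, and under neuron marker scaling 15 were lower and 22 higher around 0.058, beside 3.17% and 48% of all tested genes. Among those with the smallest p were Sncb, beta-synuclein (−0.78), Sh3gl2, the neuronal endophilin (−0.66), Clta, a clathrin light chain (−0.61), Dnm3 (−0.53) and Atp6v1b2, a subunit of the proton pump that energises transmitter uptake (−0.66). None of these 5 overlapped between groups.

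The libraries labelled activated did not weigh equally. For 34 of the 45 genes activated replicate 2 was the lowest of the 3, and for 25 activated replicate 3 was the highest. The same counts over all tested genes were not made, so this order may not be particular to the 45. The share of reads that fell in no annotated exon was 32.1%, 37.3% and 28.3% in activated replicates 1, 2 and 3, and 28.4%, 25.1% and 29.6% in control replicates 1, 2 and 3. Its part in the differences was not tested. Without activated replicate 2, 23 of the 45 genes were lower and 1 higher, with a median of −0.22. Among all genes tested in that fit 3156 were lower and 2412 higher, with a median of 0.028.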

How the data were processed

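The authors deposited raw counts of reads per gene for 6 samples of rRNA-depleted, strand-specific total RNA. The submitters' processing notes name STAR 2.5.2b, the build mm10 and edgeR, without their order or settings. The annotation release is not given in the sources used here. Reverse-strand counts were used (opposite-strand share 4.05–4.29%). The 4 lines naming no gene were kept out; outside-exon reads were 25.1–37.3% of all reads, unmapped 7.49–9.88%, multimapping 5.17–6.34% and ambiguous 0.736–0.977%. Symbols and coordinates came from GENCODE M21 (GRCm38), which held 55144 of 55385 identifiers. Of the 45 genes, 15 overlap an annotated gene on the same strand, where shared reads are not counted.

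Genes passed filterByExpr (minimum count 10, total 15), leaving 18132. Libraries were scaled by TMM and compared with edgeR 4.0.16 (R 4.3.3), quasi-likelihood test, no other term, Benjamini-Hochberg threshold 0.05. Standard errors were the size of each log2 change divided by the root of its F statistic, and CPM uses TMM library sizes. The biological coefficient of variation was 0.0762. Alternatives were DESeq2 1.42.0 size factors and its Wald test, the likelihood-ratio test, total counts, neuron marker scaling (34 markers), no filter, 1 CPM in 3 libraries, unstranded counts, a replicate block, spline offsets (4 degrees of freedom) for transcript length and GC, and each library left out. The genes, lists, pairs, motifs and alternatives were chosen with earlier results of these data known. By rule, all 45 genes were named, with values per library for those that passed, those in pairs and those under 5 CPM; further values per library (such as Bsn, Pclo, Syt4 and Syt7) were added after they were seen. On counts drawn for 18132 genes with known answers, the procedure called 46 of 67 genes at 1.5-fold (68.7%), 55 of 67 at 2-fold and 63 of 66 at 4-fold, and made 8 calls in error. Most changes reported here are under 1.5-fold. The drawn counts gave 172 calls in all, against 3733 lower and 2945 higher calls in the data. They therefore do not measure errors where so many genes move or where the calls depend on the scaling. Some of the other release genes are not reported here by name. Plots used matplotlib 3.10.9.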

Additional observations from a re-analysis of the deposited data

How the results depend on the processing

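Of the 25 genes called, 12 kept call and direction in all 17 alternatives and 19 in all but neuron marker scaling; none of the 25 changed sign outside that scaling. The other 6 (Cplx2, Doc2b, Erc2, Rph3a, Stxbp5 and Syt2) lost a call in at least 1 alternative. Sign changes elsewhere were among genes with no call. The DESeq2 size factors, the DESeq2 Wald test and the likelihood-ratio test gave the same calls for all 45. Depth limits Cplx3 most, with 1.42 CPM in the libraries labelled activated.

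Under neuron marker scaling 11 of the 45 were lower and 19 higher, the median was 0.073, 15 and 22 of the other release genes were lower and higher, and the sign changed for Syn3 (0.28), Syp (0.23), Syngr1 (0.29), Syngr3 (0.27), Sv2a (0.19), Sv2c (0.26), Syt1 (0.24), Syt2 (0.073), Doc2a (0.10), Doc2b (0.041), Rph3a (0.040), Stxbp5 (0.10), Cplx2 (0.035), Unc13a (0.24), Bsn (0.28), Pclo (0.27) and Erc2 (0.14). With total counts only the median was −0.30 and the sign changed for Sv2b (−0.058), Syt3 (−0.012), Syt4 (−0.059), Syt5 (−0.039), Syt11 (−0.021), Rims1 (−0.039) and Rims2 (−0.019). With no low-count filter the median was −0.25 and the sign changed for Sv2b (−0.0067) and Syt4 (−0.0082). With 1 CPM in 3 libraries 2 genes were higher around a median of −0.19, and the sign changed for Syn3 (0.016), Syngr1 (0.026), Syngr3 (0.0077), Bsn (0.017) and Pclo (0.0046). With unstranded counts the median was −0.26 and the sign changed for Sv2b (−0.022), Syt4 (−0.060), Syt5 (−0.0032) and Rims1 (−0.0026). With length and GC offsets 2 genes were higher, the median was −0.22 and the sign changed for Syngr1 (0.040), Syngr3 (0.022), Syt4 (−0.044) and Bsn (0.037). Calls over all genes tested in each fit moved too. Under neuron marker scaling 3.17% were lower and 48% higher. With 1 CPM in 3 libraries 3341 were higher and with length and GC offsets 3163, against 2945 in the main fit. The cause of these moves was not tested, other than the scaling, which shifts all genes.

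With the replicate block 21 genes were lower and 1 higher, with Erc2, Stxbp5 and Syt2 no longer called, and Syt4 turned to −0.010. Among all tested genes 3105 were lower and 2173 higher with the block, against 3733 and 2945 without it. The replicate block with length and GC offsets gave 20 lower and 1 higher, with Doc2b, Erc2, Rph3a and Syt2 no longer called, a median of −0.21, and a changed sign for Syngr1 (0.038), Syngr3 (0.018), Syt4 (−0.069) and Bsn (0.037). Of all genes tested in that fit 2999 were lower and 2471 higher. Whether the numbers pair the samples is not known. Same-numbered libraries deviated from their group means with correlations of −0.014, −0.18 and −0.21, and no library correlated best with its own number. With 3 libraries per group, these correlations cannot decide whether same-numbered samples shared a culture. For the ratios, the mean of same-numbered differences under this block equals the difference of the means (−0.54 for Cplx1/Cplx2).

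With 1 library left out in turn, 20 to 25 genes were lower, 1 was higher, and the median ran from −0.28 to −0.20. Of the other release genes 33 to 40 were lower and 3 to 5 higher. Over all genes tested in these fits 2846 to 3908 were lower and 1975 to 3304 higher. The sign changed in at least 1 of these fits for Bsn (−0.064 to 0.019), Pclo (−0.070 to 0.0070), Rims1 (−0.011 to 0.072), Rims2 (−0.0076 to 0.12), Sv2b (−0.062 to 0.076), Sv2c (−0.16 to 0.040), Syn3 (−0.15 to 0.079), Syngr1 (−0.10 to 0.076), Syngr3 (−0.14 to 0.050), Syt1 (−0.10 to 0.0083), Syt3 (−0.051 to 0.12), Syt4 (−0.18 to 0.10) and Syt5 (−0.060 to 0.087). The ratio differences ran from −0.0060 to 0.034 for Syngr1/Syngr3, −0.53 to −0.43 for Unc13a/Unc13b, −0.022 to 0.030 for Napa/Napb, −0.0052 to 0.11 for Doc2a/Doc2b and 0.26 to 0.52 for Syn3/Syn1.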

Other observations

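A grouping made after the values were seen, and so given without a test, sets membrane-spanning proteins against the rest. Synaptophysin, the synaptogyrins, the SV2 proteins and the synaptotagmins are proteins made on the endoplasmic reticulum as membrane-spanning chains. Of these 13 genes 1 was lower (Syt2) and none higher, with log2 fold changes from −0.23 to 0.11 and a median of −0.011. Of the other 32, which are soluble, lipid-anchored or tail-anchored proteins or large scaffolds, 23 were lower and 1 was higher (Unc13b), with a median of −0.36. Under neuron marker scaling, which shifts both groups by nearly the same amount, the medians were 0.29 and −0.061, beside 0.35 over all tested genes. Related genes outside the 45 went both ways. Sypl (0.32) and Syngr2 (0.48, under 5 CPM) were called higher under TMM scaling, and Syt6 (−0.25) and Syt17 (−0.36) lower. Synpr, Syt9, Syt10, Syt12, Syt13 and Syt16 had no call.

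Across the 45 genes the Spearman correlation of the log2 fold change with the length of the longest transcript was 0.33, and −0.024 over 18113 tested genes with a length. With transcript GC content it was −0.043, and −0.13 over the same tested genes. With the level in the control libraries (CPM) it was 0.016 across the 45 genes and −0.45 over the same tested genes, the largest in size of the properties compared. Among all tested genes, more abundant genes thus had lower log2 fold changes, and the part of level in the difference between the 45 genes and the median of all genes was not tested. These are correlations across genes in 1 set of 6 libraries, whose values share depth and library preparation. With offsets for length and GC content 23 of the 45 genes were lower, all 23 of them also without the offsets. Among all genes tested with the offsets 3576 were lower.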
